A study of Mus musculus with 80 samples.

Results

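The expression of 10 genes for secreted proteins of fat was examined in brown fat (BAT), in the inguinal depot of white fat (iWAT), and in liver and skeletal muscle of mice that lacked UCP1, FGF21 or both. The genes were taken by symbol and are Adipoq, Lep, Retn, Rbp4, Cfd, Nampt, Apln, Epdr1, Nrg4 and Slit2, which are 10 of the 32764 gene rows in each count table. All 10 were found, and the rule itself used no measured value, but the genes were chosen with earlier results of these data known. In BAT, 3 of them (Adipoq, Rbp4 and Cfd) were lower and Epdr1 was higher in mice without UCP1, with and without FGF21, where 25.2% and 13.5% of all genes tested passed the same test. A score of fat cell genes, chosen after seeing the data, was also put in the model. It did not overlap between WT and UCP1 KO, so score and genotype cannot be fully told apart. The 3 genes were then not called in UCP1 KO against WT. Their log2 fold changes were -0.62 for Adipoq, -0.91 for Rbp4 and -2.004 for Cfd, in place of -1.15, -1.52 and -2.25. Adipoq and Cfd were still called in dKO against FGF21 KO. In libraries with a score of skeletal muscle genes at or under 5, also chosen after seeing the data, Adipoq and Rbp4 were not called there. Calls of Rbp4 and Cfd were lost without single libraries. In iWAT none of the 10 passed the test in these comparisons.

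The mice were male, of 4 genotypes: wildtype (WT), FGF21 KO, UCP1 KO and the UCP1/FGF21 double knockout (dKO). The labels of the dKO libraries and a line of the study's methods write the second gene as FGF12, while the study elsewhere names FGF21. The knockouts were homozygous and present in the whole body, on a C57BL/6J background, so the intact gene was missing from every tissue throughout life. Every genotype was bred and kept at 30 °C before the experiment. High-fat feeding lasted 3 weeks and started together with housing at room temperature, when the mice were 10-12 weeks old, and food was withdrawn 2-3 h before tissues were taken. Each combination of tissue and genotype had 5 libraries, 80 in all, and the WT mice served as controls.

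Adipokines are proteins that fat cells release into the blood. Leptin reports fat stores to the brain and adiponectin raises insulin sensitivity in liver and muscle, whereas factors released by brown fat act on nearby vessels, nerves and the liver. Brown fat burns lipid through UCP1, the mitochondrial uncoupling protein, and FGF21 is a hormone that liver and stressed brown fat can secrete. Among the 10 genes, Adipoq encodes adiponectin, Lep leptin, Retn resistin, Rbp4 the retinol carrier of plasma and Cfd adipsin, a protease of the alternative complement pathway. Nampt encodes the enzyme that limits NAD synthesis from nicotinamide and also occurs outside cells, and Apln encodes apelin, a vascular peptide. Epdr1 encodes an ependymin-related secreted glycoprotein, Nrg4 a ligand of ErbB4, and Slit2 a ligand of Robo receptors; these last 3 have been studied as factors released by thermogenic fat cells.

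The genes lay on 10 chromosomes of the GRCm38 build. In the GENCODE annotation, Adipoq spanned chr16:23146536-23158028, Lep chr6:29060220-29073877, Retn chr8:3655770-3660110, Cfd chr10:79890853-79892655, Nampt chr12:32819545-32853349 and Slit2 chr5:47983138-48307733, all on the plus strand. On the minus strand were Rbp4 at chr19:38116629-38125281, Apln at chrX:48025146-48034853, Epdr1 at chr13:19591706-19619927 and Nrg4 at chr9:55220222-55326844. Read counts covered all exons of a gene together, so isoforms were not distinguished. Exons of Nrg4 share 166 bases with Fbxo22 on the opposite strand. The strand setting of the counting is not given in the sources used here, so reads in that stretch may belong to either gene.

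The sequence upstream of the start site is shown for the 4 genes that passed the test in BAT and for Nampt, which passed a test of a difference in UCP1 loss effect between the fat depots (adjusted p = 0.00963, edgeR), a call that was lost without each of 18 of 20 libraries. They are the 250 bases before a RefSeq start (GRCm38.p6), less any bases in annotated exons, written 5′ to 3′ on the gene's own strand, with matches to the motifs named after them in capitals.
Adipoq, chr16:23146286-23146535, plus strand: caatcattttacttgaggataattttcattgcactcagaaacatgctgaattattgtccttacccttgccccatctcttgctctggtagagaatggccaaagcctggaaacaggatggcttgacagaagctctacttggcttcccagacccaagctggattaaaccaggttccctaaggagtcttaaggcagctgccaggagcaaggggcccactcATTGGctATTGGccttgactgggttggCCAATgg
Rbp4, chr19:38125322-38125571, minus strand: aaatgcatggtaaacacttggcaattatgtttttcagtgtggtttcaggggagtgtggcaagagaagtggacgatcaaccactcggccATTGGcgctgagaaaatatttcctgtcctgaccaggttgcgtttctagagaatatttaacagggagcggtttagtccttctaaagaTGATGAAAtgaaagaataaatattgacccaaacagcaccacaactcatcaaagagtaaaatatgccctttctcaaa
Cfd, chr10:79890603-79890852, plus strand: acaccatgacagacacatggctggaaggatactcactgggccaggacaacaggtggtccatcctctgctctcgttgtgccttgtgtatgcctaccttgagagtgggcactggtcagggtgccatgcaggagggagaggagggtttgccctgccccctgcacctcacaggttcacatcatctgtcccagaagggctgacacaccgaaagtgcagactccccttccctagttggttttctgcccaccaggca
Epdr1, chr13:19619928-19620080, minus strand: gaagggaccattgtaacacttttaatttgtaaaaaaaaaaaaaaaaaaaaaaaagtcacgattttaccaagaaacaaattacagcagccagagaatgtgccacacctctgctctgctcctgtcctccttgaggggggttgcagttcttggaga
Nampt, chr12:32820085-32820334, plus strand: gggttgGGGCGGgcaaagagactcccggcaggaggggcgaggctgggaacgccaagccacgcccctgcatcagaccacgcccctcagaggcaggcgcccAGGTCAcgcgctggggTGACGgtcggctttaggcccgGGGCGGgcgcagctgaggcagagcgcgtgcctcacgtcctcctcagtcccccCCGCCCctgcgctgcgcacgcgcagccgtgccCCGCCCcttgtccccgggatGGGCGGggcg

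Searched on both strands were CCAAT, the GC box GGGCGG, the TATA box TATAAA, the C/EBP site TTGCNNAA, the ATF4 element TGATGNAA, the cAMP response elements TGACGTCA and TGACG, and the nuclear receptor half-site AGGTCA with its direct repeat spaced by 1 base. The half-site lies within the direct repeat and TGACG lies within TGACGTCA. Among 32851 windows of the same length, CCAAT was present in 33.8%, GGGCGG in 32.7%, AGGTCA in 14%, TGACG in 17.8%, TTGCNNAA in 9.56%, TGATGNAA in 3.45% and TATAAA in 12.4%. The full direct repeat was present in 0.0335% and TGACGTCA in 1.55% of them, and in none of the windows of the 10 genes. Upstream of Adipoq, CCAAT occurred 3 times, the nearest 3 to 7 bases before the start. Upstream of the Rbp4 start shown there was TGATGAAA at 69 to 76 bases and CCAAT at 158 to 162 bases. RefSeq gives Rbp4 a second start, whose window (chr19:38124812-38125061, GC content 70.8%) is not printed because 124 of its bases lie in annotated exons. That window held TATAAA at 23 to 28 bases, TTATGCAA, a match to TTGCNNAA on the other strand, at 121 to 128 bases, TGACG at 168 to 172 bases and 2 GC boxes. The Nampt window held 5 GC boxes, AGGTCA at 146 to 151 bases and TGACG at 131 to 135 bases. Its GC content was 75.6% against a median of 52.4% over all windows. It lies inside the Nampt span given above, so it is upstream of the RefSeq start used but not of the GENCODE gene start. The Cfd and Epdr1 windows held no match. These matches describe letters in the reference sequence, and binding was not measured.

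The depth was 28691377 to 50380696 gene-assigned reads in a library (median 38022853), and expression is given as CPM, the count relative to the TMM-scaled library size. Fgf21 was at 0 to 3 counts in every FGF21 KO and dKO library of both fat depots. Ucp1 reads remained in the UCP1 KO, with 530 to 1238 CPM in BAT against 3205 to 8074 CPM in WT and FGF21 KO libraries, so that transcript checks the label only in part, and where these reads lie in the gene was not analysed here. Marker genes of other cells differed between libraries of a tissue. Their level is given as a score, the mean of log2(CPM + 0.1) over a marker list. In iWAT, 9 of 20 libraries had a lymph node score (8 B and T cell genes) between 6.40 and 7.33, while the other 11 stood at or under 1.68. The skeletal muscle score in iWAT was above 5 in WT replicates 4 and 5 (5.99 and 9.47), FGF21 KO replicate 5 (7.97), UCP1 KO replicate 1 (10.36) and dKO replicate 1 (5.50), and at or under 4.78 in the others. In BAT, the score of 10 skeletal muscle genes was 1.06 to 3.09 in WT, 1.19 to 4.87 in FGF21 KO, 2.12 to 9.26 in UCP1 KO and 2.60 to 8.33 in dKO. Adipocyte genes themselves were present in every BAT and iWAT library (score 8.35 to 10.83).

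To ask what UCP1 loss did to these genes in brown fat, UCP1 KO was compared with WT and dKO with FGF21 KO. Against WT, UCP1 KO had 1 of the 10 genes higher and 3 lower (4 called by edgeR's quasi-likelihood test at an adjusted p under 0.01), where 25.2% of the 15729 genes tested were called, 13.8% higher and 11.4% lower. The median log2 fold change was -0.54 over the 10 genes and 0.01 over all genes tested. In dKO against FGF21 KO, 4 of the 10 were called, again 1 higher and 3 lower, against 13.5% of all genes (6.74% higher and 6.8% lower). The median was -0.30 over the 10 genes and 0.00 over all genes. The libraries of both groups did not overlap for 3 of the 10 genes in UCP1 KO against WT, as for 23.5% of all genes, and for 4 in dKO against FGF21 KO, as for 18.6%. Where nothing says that libraries came from separate cages or litters, these p-values measure only the spread between them. In whole tissue, fewer cells of a type and less RNA per cell cannot be told apart.

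**Figure D1:**
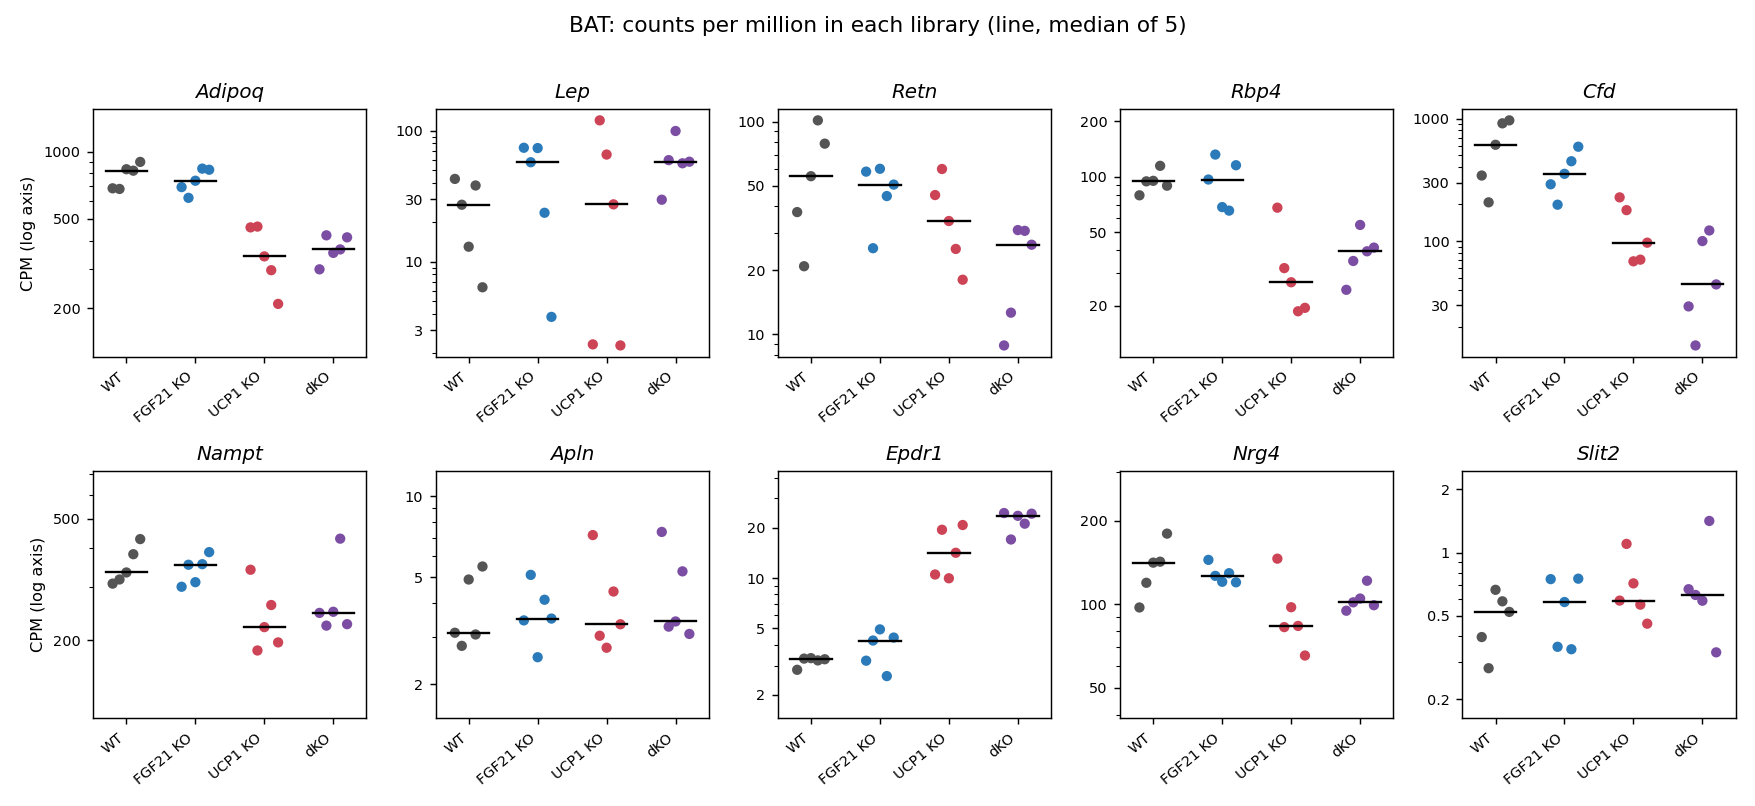
CPM of the 10 genes in the 20 BAT libraries on a log axis, 1 panel per gene, with 1 point per library and a line at the group median (n = 5 per genotype). Adipoq was 681 to 899 CPM in WT and 209 to 462 CPM in UCP1 KO, while Epdr1 was 2.83 to 3.32 CPM in WT and 9.98 to 20.8 CPM in UCP1 KO.

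Adiponectin, the most abundant hormone of fat cells in plasma, was less abundant at the RNA level without UCP1. The WT libraries measured 685, 681, 834, 822 and 899 CPM of Adipoq and the UCP1 KO libraries 458, 462, 340, 295 and 209 CPM. Every UCP1 KO library was below every WT library, and the change was -1.15 ± 0.17 (log2 fold change ± SE, adjusted p = 5.97e-05, edgeR). In the mice without FGF21, there were 694, 621, 741, 839 and 830 CPM in FGF21 KO and 298, 423, 353, 366 and 414 CPM in dKO. These groups did not overlap either, and Adipoq fell by 1.01 ± 0.17 on the log2 scale (adjusted p = 0.00038, edgeR). Group means were 784 ± 96.9 CPM in WT, 745 ± 92.1 in FGF21 KO, 353 ± 109 in UCP1 KO and 371 ± 50.5 in dKO (SD, n = 5 each).

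Rbp4, the carrier that brings retinol from liver and fat into the blood, moved in the same direction. It measured 79.4, 94.6, 95.2, 115 and 89.6 CPM in WT against 68, 32, 26.8, 18.6 and 19.5 CPM in UCP1 KO. In FGF21 KO it measured 96.7, 132, 68.5, 65.6 and 116 CPM, and in dKO 24.4, 34.9, 54.8, 39.4 and 41.3 CPM. The groups with and without UCP1 were separate in both comparisons, with the first UCP1 KO library nearest to the controls. The changes were -1.52 ± 0.30 (adjusted p = 0.000737, edgeR) and -1.30 ± 0.30 (adjusted p = 0.00429, edgeR). The second call was lost without dKO replicates 1 or 2 or FGF21 KO replicates 2 or 5 (adjusted p up to 0.0136). The score of 8 hepatocyte genes, whose tissue held the highest Rbp4 level, was 0.52 to 1.18 in WT, 0.35 to 2.60 in FGF21 KO, 0.80 to 2.18 in UCP1 KO and 2.39 to 2.69 in dKO BAT, and its part in the Rbp4 values was not tested.

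Cfd, which encodes adipsin, had the largest fall among the 4 called genes and the largest standard error among them. The WT libraries held 343, 207, 611, 915 and 967 CPM and the UCP1 KO libraries 227, 179, 68.3, 70.5 and 97 CPM. The lowest WT library lay below the highest UCP1 KO library, and the other 4 WT libraries were above all UCP1 KO libraries. FGF21 KO measured 291, 198, 354, 449 and 590 CPM, above every dKO library at 29.3, 14, 100, 122 and 44.3 CPM. Cfd changed by -2.25 ± 0.55 (adjusted p = 0.00333, edgeR) in UCP1 KO against WT and by -2.60 ± 0.55 (adjusted p = 0.0023, edgeR) in dKO against FGF21 KO. The first of these calls was lost without WT replicate 5 or UCP1 KO replicate 4 (adjusted p up to 0.0104).

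The levels of Adipoq, Rbp4 and Cfd were read beside the fat cell and macrophage markers of the same libraries. The adipocyte score was 10.08 to 10.33 in WT, 9.15 to 10.07 in UCP1 KO, 10.13 to 10.29 in FGF21 KO and 9.76 to 10.09 in dKO. Of the 8 adipocyte genes, 3 were lower in UCP1 KO than in WT (11.4% of all genes were lower) and 1 was lower in dKO than in FGF21 KO (6.8% of all genes). UCP1 KO replicate 5 had both the lowest adipocyte score and the lowest Adipoq level. The macrophage score was 3.23 to 3.53 in WT against 3.84 to 5.38 in UCP1 KO, where 5 of 6 macrophage genes and 13.8% of all genes were higher, and 3.22 to 3.87 in FGF21 KO against 3.49 to 4.64 in dKO, where 1 of 6 and 6.74% of all genes were higher. With the adipocyte score as a covariate, chosen after seeing the data, UCP1 KO against WT gave -0.62 for Adipoq (adjusted p = 0.0159, edgeR), -0.91 for Rbp4 (adjusted p = 0.0776) and -2.004 for Cfd (adjusted p = 0.0788), so none of the 3 was called. With the macrophage score as a covariate, also chosen after seeing the data, Adipoq was called, while Rbp4 at -0.87 (adjusted p = 0.169, edgeR) and Cfd at -2.07 (adjusted p = 0.139) were not. In dKO against FGF21 KO, Rbp4 was not called with the muscle, macrophage or adipocyte score as a covariate (-1.33, -0.98 and -0.95 on the log2 scale, adjusted p = 0.0154, 0.0285 and 0.0223, edgeR), and Adipoq and Cfd were called with each. The adipocyte score did not overlap in either comparison, and the macrophage score did not overlap between WT and UCP1 KO. There, score and genotype cannot be fully told apart. The share of all genes called with these scores in the model was not worked out. The part of fat cells and macrophages in the 3 changes was not tested further.

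Epdr1 was the gene that rose. It measured 2.83, 3.3, 3.32, 3.22 and 3.27 CPM in WT BAT and 10.5, 19.5, 9.98, 14.2 and 20.8 CPM in UCP1 KO BAT. In FGF21 KO it measured 3.21, 4.23, 4.94, 2.59 and 4.41 CPM and in dKO 24.5, 17, 23.6, 21.2 and 24.3 CPM. All 10 libraries without UCP1 were above all 10 with it, and the narrow WT group had a mean of 3.19 ± 0.205 CPM (SD, n = 5). The rise was 2.23 ± 0.21 (adjusted p = 4.68e-07, edgeR) in UCP1 KO against WT and 2.51 ± 0.20 (adjusted p = 2.63e-07, edgeR) in dKO against FGF21 KO.

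Skeletal muscle held far more Epdr1 than any fat depot, so the muscle markers of each BAT library were set beside it. Epdr1 was 118 to 136 CPM in WT muscle. The muscle scores of the UCP1 KO libraries were 2.23, 9.26, 5.90, 4.69 and 2.12, and those of the dKO libraries 8.02, 2.60, 8.33, 8.26 and 4.54. UCP1 KO replicates 1 and 5 and dKO replicate 2 had muscle scores inside the WT range of 1.06 to 3.09, and their Epdr1 levels were 10.5, 20.8 and 17 CPM, above every WT library. Of the 10 muscle genes, 5 were higher in UCP1 KO against WT (median log2 fold change 4.74), beside 13.8% of all genes. The median was nearly as high in dKO against FGF21 KO, at 4.05, although 0 passed the test there, and in dKO against WT 10 of 10 were higher (median 5.10), beside 11.1% of all genes. With the muscle score as a covariate, the change of Epdr1 was 2.11 (adjusted p = 1.85e-06, edgeR) and 2.35 (adjusted p = 3.26e-06, edgeR). With the 15 libraries at a score of 5 or under (5 WT, 5 FGF21 KO, 3 UCP1 KO and 2 dKO), a limit chosen after seeing the data, it was 2.25 (adjusted p = 6.00e-06, edgeR) and 2.42 (adjusted p = 1.51e-05, edgeR). In the same 15 libraries Adipoq at -0.83 (adjusted p = 0.0154, edgeR) and Rbp4 at -1.33 (adjusted p = 0.0359) were no longer called in dKO against FGF21 KO.

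**Figure D2:**
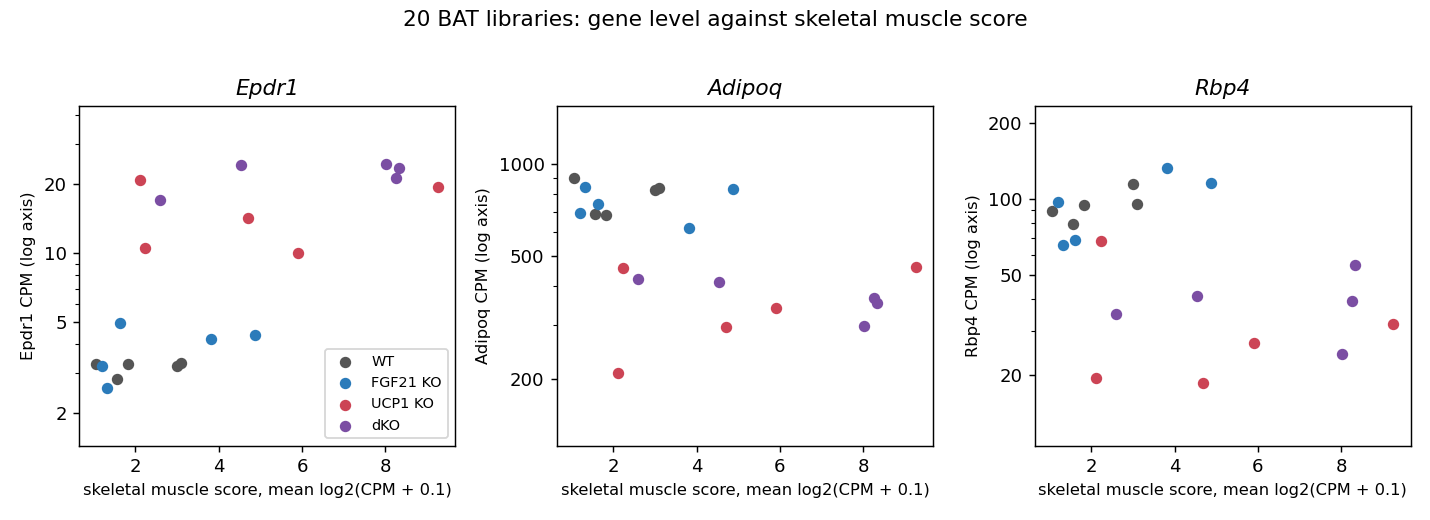
Epdr1, Adipoq and Rbp4 (CPM, log axis, 1 panel each) against the skeletal muscle score (mean log2(CPM + 0.1) over 10 muscle genes) in the 20 BAT libraries, with 1 point per library and colours for the genotypes. In the Epdr1 panel, UCP1 KO libraries 1 and 5 and dKO library 2 lie within the WT range of the score, at 10.5, 20.8 and 17 CPM.

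The other 6 genes were not called in either comparison. Nampt measured 307, 316, 334, 383 and 429 CPM in WT BAT and 341, 185, 221, 261 and 197 CPM in UCP1 KO. The first UCP1 KO library lay among the WT libraries and the other 4 lay below them, and the difference was -0.55 ± 0.18 (adjusted p = 0.0202, edgeR), which DESeq2 called (adjusted p = 0.00903). In dKO, replicate 4 stood at 431 CPM while the others were 223 to 248 CPM, against 300 to 389 CPM in FGF21 KO.

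Nrg4, the ErbB4 ligand that brown fat sends to the liver, measured 97.4, 119, 141, 142 and 180 CPM in WT and 146, 82.8, 97.6, 83.6 and 65.4 CPM in UCP1 KO. Its difference was -0.52 ± 0.17 (adjusted p = 0.0215, edgeR) there and -0.30 ± 0.17 (adjusted p = 0.204) in dKO against FGF21 KO, and the libraries overlapped in both. Without UCP1 KO replicate 1, Nampt and Nrg4 were both called in UCP1 KO against WT, and 1 of them was called without WT replicate 1 (Nrg4) or dKO replicate 4 (Nampt).

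Leptin varied more between libraries of a genotype than between genotypes. Lep was 6.37 to 42.9 CPM in WT, 3.79 to 74.1 CPM in FGF21 KO, 2.29 to 120 CPM in UCP1 KO and 29.7 to 99.6 CPM in dKO. The UCP1 KO libraries spanned the whole range, with 2 of them under 3 CPM, and the difference from WT was 0.77 ± 0.85 (adjusted p = 0.492, edgeR), while the difference of mean log2 CPM was -0.33. Resistin (Retn) averaged 58.9 ± 32.1 CPM in WT, 47.8 ± 13.9 in FGF21 KO, 36.5 ± 16.6 in UCP1 KO and 21.9 ± 10.4 in dKO (SD, n = 5 each), with -0.69 ± 0.41 in UCP1 KO against WT (adjusted p = 0.19, edgeR) and -1.13 ± 0.42 in dKO against FGF21 KO (adjusted p = 0.05). Apelin was low, at 2.52 to 7.36 CPM over the 20 libraries, and differed by 0.10 ± 0.30 in UCP1 KO against WT (adjusted p = 0.825, edgeR). Slit2 had only 8 to 55 counts per BAT library, so changes of its level could be measured only coarsely (0.48 ± 0.36, adjusted p = 0.299, edgeR).

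The comparison of UCP1 KO with dKO asks whether FGF21 was needed for what UCP1 loss did. Of the 10 genes, 0 were called in BAT (edgeR), against 0.0636% of all genes, and DESeq2 called 0. An unadjusted p under 0.05 was found for 1 (edgeR), beside 12.9% of all genes. The gene with the unadjusted p under 0.05 was Epdr1, at 9.98 to 20.8 CPM in UCP1 KO and 17 to 24.5 CPM in dKO, a difference of -0.56 ± 0.19 (adjusted p = 0.258, edgeR). Cfd was 128 ± 71.2 CPM in UCP1 KO and 61.9 ± 46.7 CPM in dKO (1.05 ± 0.53, adjusted p = 0.413, edgeR). In FGF21 KO against WT, 0 of the 10 genes and 0% of all genes were called (edgeR), and DESeq2 called 0 of the 10. In that comparison 0 had an unadjusted p under 0.05 (edgeR), beside 8.55% of all genes. The interaction asks whether the effect of UCP1 loss depended on FGF21. It held 0 of the 10 at an unadjusted p under 0.05 (edgeR), beside 5.37% of all genes. It called 0 of the 10 by either tool, and 0% of all genes (edgeR). It was -0.14 ± 0.24 for Adipoq, -0.23 ± 0.42 for Rbp4, 0.36 ± 0.74 for Cfd and -0.28 ± 0.28 for Epdr1 on the log2 scale, so differences of the size of these standard errors were not detectable with 5 libraries per group. Fgf21 itself was 24.3 ± 9.50 CPM in UCP1 KO BAT and 0.250 ± 0.0232 CPM in WT BAT (SD, n = 5 each).

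**Figure D3:**
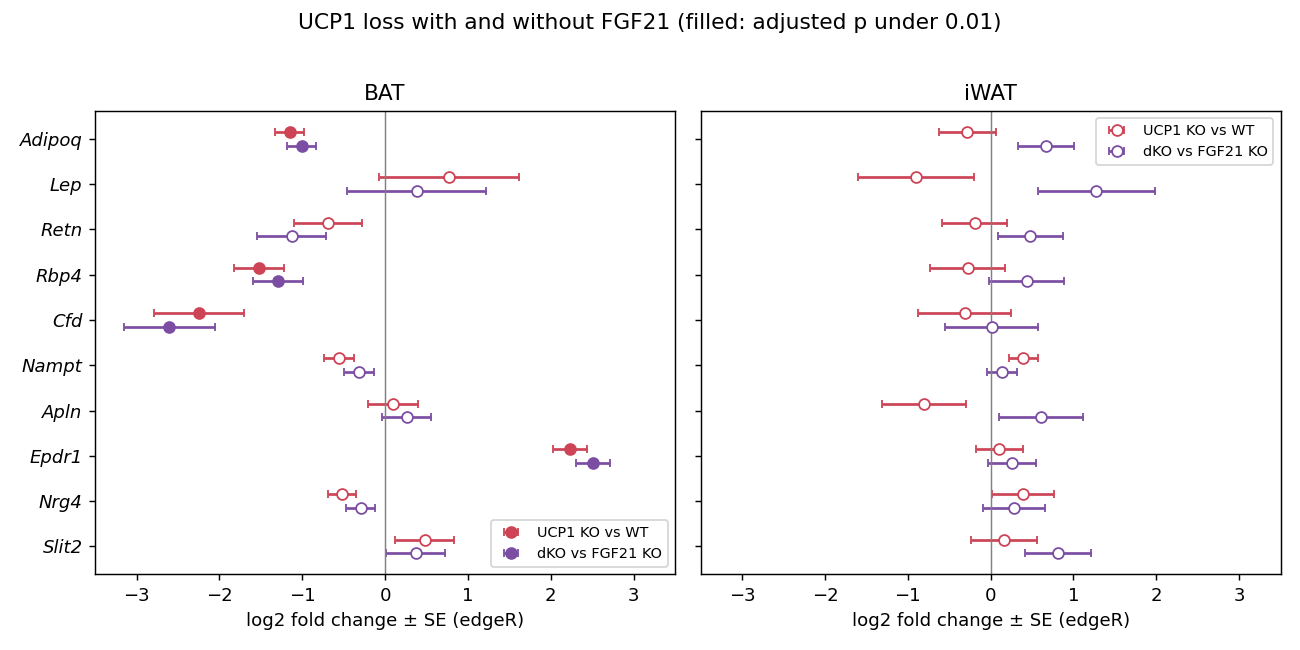
Log2 fold change of the 10 genes with its standard error (bars) for UCP1 KO against WT and for dKO against FGF21 KO, in BAT and in iWAT (n = 5 libraries per group), with filled points for an adjusted p under 0.01. In BAT, Epdr1 lies at 2.23 and 2.51 and Cfd at -2.25 and -2.60, and all points in iWAT are open.

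Receptors and partners of the 10 proteins, a list of 19 genes of which 18 were tested in BAT, held 4 called genes in UCP1 KO against WT (1 higher, 3 lower; 25.2% of all genes were called) and 5 in dKO against FGF21 KO (3 higher, 2 lower; 13.5% of all genes). Erbb4, the receptor of Nrg4, fell in both, from 6.64 ± 0.90 CPM in WT to 2.81 ± 1.5 CPM in UCP1 KO (-1.24 ± 0.31, adjusted p = 0.00433, edgeR) and from 7.57 ± 1.2 CPM in FGF21 KO to 2.95 ± 1.3 CPM in dKO (-1.36 ± 0.31, adjusted p = 0.00402, edgeR; SD, n = 5 each). Nmnat3, a mitochondrial enzyme of the NAD step after Nampt, also fell in both, by 0.48 and 0.40 on the log2 scale. The adiponectin receptor Adipor2 fell by 0.56 in UCP1 KO against WT (adjusted p = 0.00157, edgeR), whereas Adipor1 differed by 0.08 ± 0.06 (adjusted p = 0.323). Stra6l, a relative of the receptor that takes up retinol from Rbp4, had 0 to 2 counts in a WT library and 5 to 24 counts in a UCP1 KO library. In dKO against FGF21 KO the apelin receptor Aplnr rose by 1.23, the nuclear enzyme Nmnat1 by 0.40 and the adiponectin-binding cadherin Cdh13 by 0.31 on the log2 scale. The leptin receptor gene Lepr had 7 to 35 counts per BAT library and was not called.

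Of 3 genes that fold and release adiponectin, 1 was higher and 1 lower in both comparisons, and Erp44 was not called. Over all genes 13.8% were higher and 11.4% lower in UCP1 KO against WT, and 6.74% and 6.8% in dKO against FGF21 KO. Ero1l, an oxidase of the endoplasmic reticulum that promotes adiponectin release, rose from 21.1-23.2 CPM in WT to 54.7-467 CPM in UCP1 KO (3.13 ± 0.40, adjusted p = 1.21e-05, edgeR) and from 19.5-25.4 CPM in FGF21 KO to 73.6-114 CPM in dKO (2.07 ± 0.38, adjusted p = 0.00075, edgeR). Gstk1, also named for its part in adiponectin assembly, fell by 0.59 (adjusted p = 0.000128, edgeR) and 0.55 (adjusted p = 0.000516, edgeR) on the log2 scale. Erp44, which retains adiponectin in the cell, was 40.8 ± 1.5 CPM in WT and 36.5 ± 3.6 CPM in UCP1 KO (SD, n = 5 each; adjusted p = 0.173, edgeR).

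Among 10 other adipokines, of which 8 were tested in BAT, 3 rose and 0 fell in UCP1 KO against WT, where 13.8% of all genes rose and 11.4% fell. In dKO against FGF21 KO, 1 rose and 1 fell, where 6.74% of all genes rose and 6.8% fell. Ccl2, a chemokine that draws monocytes, rose in both, from 0.315-0.608 CPM in WT to 1.05-9.42 CPM in UCP1 KO and from 0.549-1.07 CPM in FGF21 KO to 1.67-5.23 CPM in dKO. Lcn2, a lipocalin of the acute phase, was 0.274 to 0.702 CPM in WT and 0.939 to 43.2 CPM in UCP1 KO, with a median of 2.75 CPM that lay far below the highest library. It was 0.46 to 0.731 CPM in dKO (4.26 on the log2 scale for UCP1 KO against dKO, adjusted p = 0.0339, edgeR, not called). Metrnl, a secreted factor of muscle and fat, rose by 0.91 in UCP1 KO against WT, and Rarres2, which encodes chemerin, fell by 0.89 in dKO against FGF21 KO. Of 9 relatives of the 10 genes, 5 were tested, and 2 rose in UCP1 KO against WT, beside the same 13.8% of all genes. These were Nrg2, with 2 to 5 counts per WT library and 11 to 71 per UCP1 KO library, and Slit1, with 3 to 7 counts per WT library and 26 to 3106 per UCP1 KO library. In dKO against FGF21 KO 1 relative rose, Nrg2 (adjusted p = 0.0053, edgeR), from 2-4 counts to 8-33 counts per library.

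In iWAT the same comparisons ask whether white fat responded. Of the 10 genes, 0 were called in UCP1 KO against WT (edgeR), where 0.61% of 17380 genes were called, and DESeq2 called 0. There 1 had an unadjusted p under 0.05 (edgeR), beside 14.7% of all genes. In dKO against FGF21 KO 0 were called (edgeR), against 0.0115% of all genes, and DESeq2 called 0. There 0 had an unadjusted p under 0.05 (edgeR), beside 8.62% of all genes. Median log2 fold changes were -0.23 and 0.46 over the 10 genes, and -0.03 and -0.0011 over all genes. The median over 8 fat cell genes was 0.67 in dKO against FGF21 KO, where 4 of 5 FGF21 KO libraries but 2 of 5 dKO libraries had a lymph node score above 4. With that score as a covariate 0 of the 10 were called there too (edgeR; 0 had an unadjusted p under 0.05). None of the listed receptors, folding genes, other adipokines or relatives was called in either comparison.

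**Figure D4:**
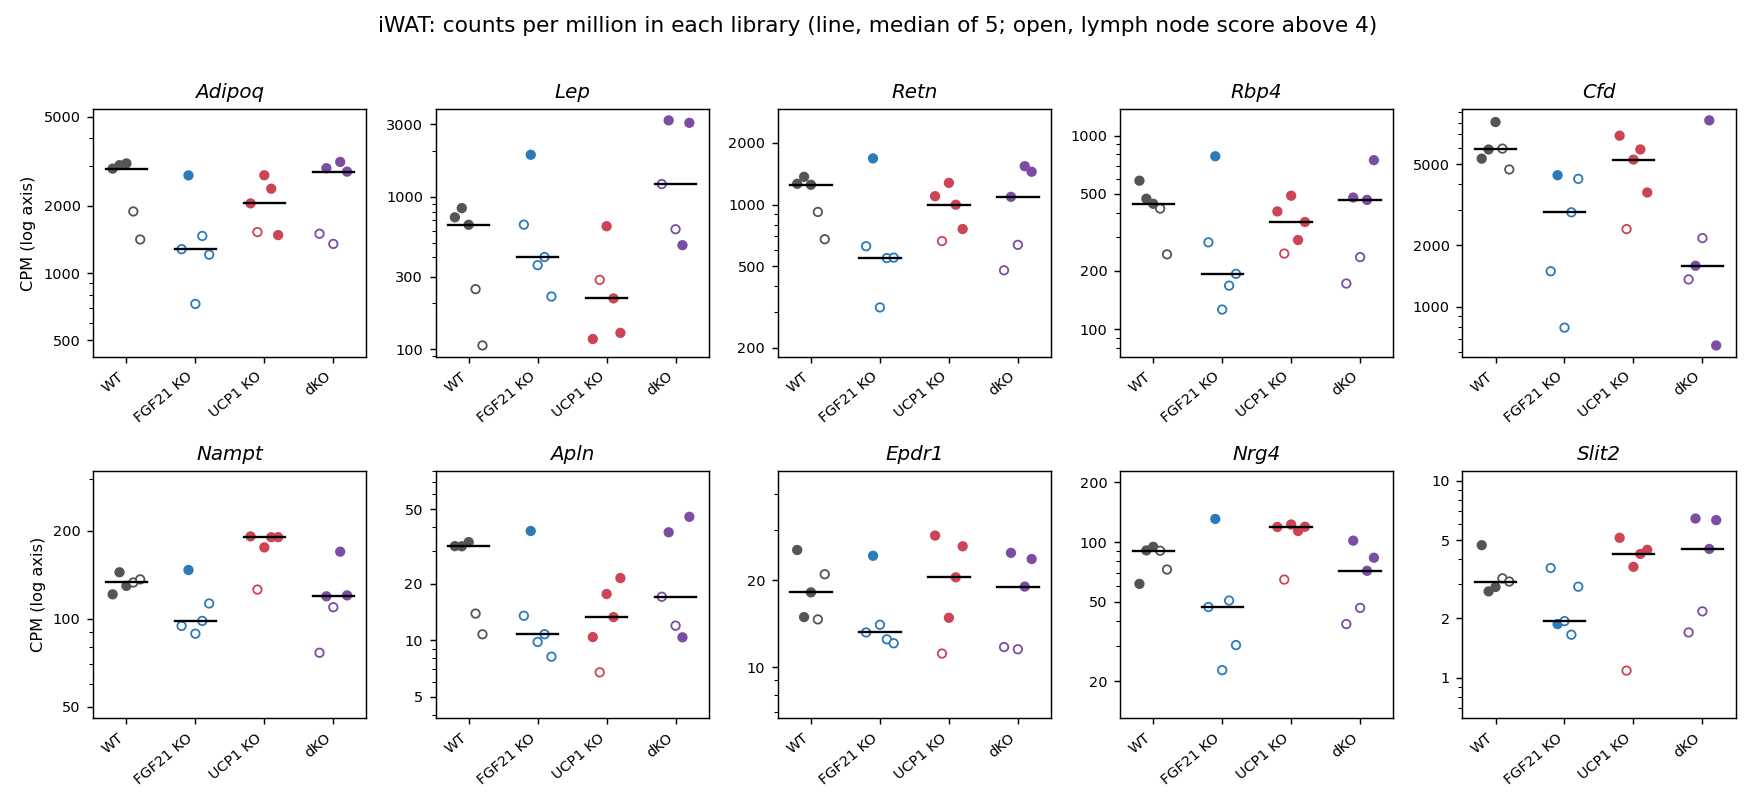
CPM of the 10 genes in the 20 iWAT libraries on a log axis, 1 panel per gene, with 1 point per library (n = 5 per genotype) and open symbols for the 9 libraries with a lymph node score above 4. Open symbols hold the 4 lowest FGF21 KO libraries of Adipoq, at 728 to 1465 CPM.

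The libraries with lymph node markers in iWAT were WT replicates 4 and 5, FGF21 KO replicates 1, 3, 4 and 5, UCP1 KO replicate 2 and dKO replicates 1 and 3. Adipoq measured 2926, 3033, 3089, 1884 and 1412 CPM in WT, 1278, 2730, 728, 1465 and 1208 CPM in FGF21 KO, 2047, 1524, 2734, 2381 and 1478 CPM in UCP1 KO and 1499, 2939, 1350, 3136 and 2837 CPM in dKO. In WT, FGF21 KO and dKO every lymph node library was below every other library of its genotype, and in UCP1 KO replicate 2 was the second lowest. Cfd, the most abundant of the 10 per exon length, measured 5328, 5909, 8053, 5966 and 4715 CPM in WT and 1495, 4419, 792, 2908 and 4242 CPM in FGF21 KO. These groups did not overlap, as was the case for 2.71% of all genes, and the difference of -1.11 ± 0.57 was not called (adjusted p = 0.298, edgeR). With 4 of 5 FGF21 KO libraries but 2 of 5 WT libraries above a lymph node score of 4, genotype and lymph node content cannot be fully told apart. In that comparison 0 of the 10 genes were called (edgeR), against 0.00575% of all genes, and DESeq2 called 0. An unadjusted p under 0.05 was found for 1 (Adipoq, adjusted p = 0.28, edgeR), beside 17.4% of all genes.

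UCP1 KO against dKO, which differ in FGF21, was the iWAT comparison with the largest difference, that of leptin. Lep measured 117, 285, 641, 216 and 128 CPM in UCP1 KO and 1212, 3171, 613, 482 and 3055 CPM in dKO. Only the third UCP1 KO library reached into the dKO range. The difference was -2.62 ± 0.74 (adjusted p = 0.0712, edgeR), which was not called, while DESeq2 called it (adjusted p = 0.00329). It was -2.65 once the lymph node score entered the model (adjusted p = 0.0093, edgeR), and -3.05 in the 11 libraries with a lymph node score at or under 4 (adjusted p = 0.0367, edgeR). In WT, Lep was 734, 843, 655, 248 and 106 CPM, and in FGF21 KO 657, 1886, 356, 403 and 222 CPM, and the medians of these groups, 655 and 403 CPM, lay between 216 CPM in UCP1 KO and 1212 CPM in dKO. Of the 10 genes, 2 had an unadjusted p under 0.05 (edgeR), beside 14.2% of all genes, and 0 were called by edgeR against 0.466%.

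The other gene was Nampt, at 191, 126, 175, 190 and 190 CPM in UCP1 KO and 76.5, 119, 109, 169 and 120 CPM in dKO (0.55 ± 0.18, adjusted p = 0.116, edgeR). In WT it was 121, 144, 129, 133 and 136 CPM, so that 4 of 5 UCP1 KO libraries were above every WT library and replicate 2, the lymph node library, lay among them. The difference from WT was 0.39 ± 0.18 (adjusted p = 0.3, edgeR). Nrg4 had the same arrangement, with 119, 64.8, 123, 114 and 119 CPM in UCP1 KO against 61.6, 90.8, 94.6, 90.4 and 72.7 CPM in WT and 38.7, 102, 46.7, 71.7 and 83.4 CPM in dKO. It was not called (UCP1 KO against WT, 0.39 ± 0.37, adjusted p = 0.742, edgeR).

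For the remaining genes, the genotypes overlapped throughout. Retn was 315 to 1681 CPM, Rbp4 126 to 782 CPM, Apln 6.74 to 45.6 CPM, Epdr1 11.2 to 28.6 CPM and Slit2 1.08 to 6.43 CPM over the 20 libraries. Epdr1, which separated the genotypes in BAT, averaged 18.8 ± 4.53 CPM in WT, 15.2 ± 5.14 in FGF21 KO, 20.3 ± 7.38 in UCP1 KO and 18.2 ± 6.37 in dKO (SD, n = 5 each). Its highest library, UCP1 KO replicate 1 at 28.6 CPM, also had the highest muscle score in iWAT, and the part of muscle RNA in that value was not tested. The interaction asks here too whether the effect of UCP1 loss depended on FGF21. It called 0 of the 10 genes and 0% of all genes (edgeR), and DESeq2 called 0 of the 10. An unadjusted p under 0.05 was found for 1, Lep at -2.17 ± 1.00 (adjusted p = 0.477, edgeR), beside 9.98% of all genes.

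The effect of UCP1 loss was then compared between the depots in 1 model of the 40 BAT and iWAT libraries. Tissues may come from the same mice, which no label links, so in this and the other tests between tissues all libraries were treated as independent, and the effect of that on the p-values was not tested. It differed for 2 of the 10 genes, against 6.39% of 17739 genes tested. For Epdr1 the effect was 2.23 in BAT and 0.12 in iWAT, a difference of 2.11 ± 0.35 (adjusted p = 0.00011, edgeR). For Nampt it was -0.56 in BAT and 0.41 in iWAT, a difference of -0.97 ± 0.26 (adjusted p = 0.00963, edgeR). The Nampt call was close to the threshold and was kept only without iWAT UCP1 KO replicate 2 or BAT UCP1 KO replicate 1, and it was lost without each of the other 18 libraries (adjusted p up to 0.0298). The falls of Adipoq (difference -0.90 ± 0.38, adjusted p = 0.115, edgeR), Rbp4 (-1.26 ± 0.55, adjusted p = 0.129) and Cfd (-1.95 ± 0.80, adjusted p = 0.101) were not shown to differ between the depots.

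In WT mice, all 10 genes differed between BAT and iWAT (edgeR, adjusted p under 0.01), where 55.6% of the 18378 genes tested over all 80 libraries were called, 24.9% higher and 30.7% lower in BAT. The libraries of the depots did not overlap for any of the 10, as for 51.7% of all genes. Values in this paragraph and in the next ones on WT tissues are CPM scaled over all 80 libraries, so they are lower for iWAT than those given above. Higher in BAT were Nampt, at 295, 305, 324, 373 and 415 CPM against 77.7, 91.1, 81.9, 82.3 and 85.3 CPM in iWAT (2.03 ± 0.16, adjusted p = 1.13e-17, edgeR), and Nrg4, at 93.8, 115, 137, 138 and 174 CPM against 39.5, 57.4, 59.8, 56 and 45.6 CPM (1.35 ± 0.35, adjusted p = 0.000631, edgeR). The classic adipokines were higher in iWAT. Lep averaged 24.7 CPM in BAT and 328 CPM in iWAT (-3.73 ± 0.74), Retn 57.1 and 692 CPM (-3.60 ± 0.43), Cfd 590 and 3779 CPM (-2.68 ± 0.56), and Rbp4 91.7 and 273 CPM (-1.58 ± 0.35).

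Adipoq had the smallest difference between the depots, at 660, 657, 809, 799 and 869 CPM in BAT and 1878, 1918, 1953, 1167 and 885 CPM in iWAT. The fifth iWAT library, a lymph node library, lay just above the highest BAT library, and the difference was -1.04 ± 0.32 (adjusted p = 0.00366, edgeR). This call was lost when any of 5 of the 10 WT libraries was left out (BAT replicates 1 and 2, iWAT replicates 1, 2 and 3, adjusted p up to 0.0117). Epdr1 and Slit2, studied as factors of thermogenic fat, were both lower in BAT than in iWAT of these mice, at 3.09 against 11.9 CPM for Epdr1 (-1.95 ± 0.23) and 0.474 against 2.10 CPM for Slit2 (-2.14 ± 0.39). Apln averaged 3.74 CPM in BAT and 15.4 CPM in iWAT (-2.04 ± 0.38). Markers of other cells differed between the same WT libraries. The score of 4 stromal genes was 6.47 to 7.09 in BAT and 9.57 to 10.35 in iWAT, and the macrophage score was 3.23 to 3.53 in BAT and 6.54 to 7.26 in iWAT. Their part in the differences between the depots was not tested.

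**Figure D5:**
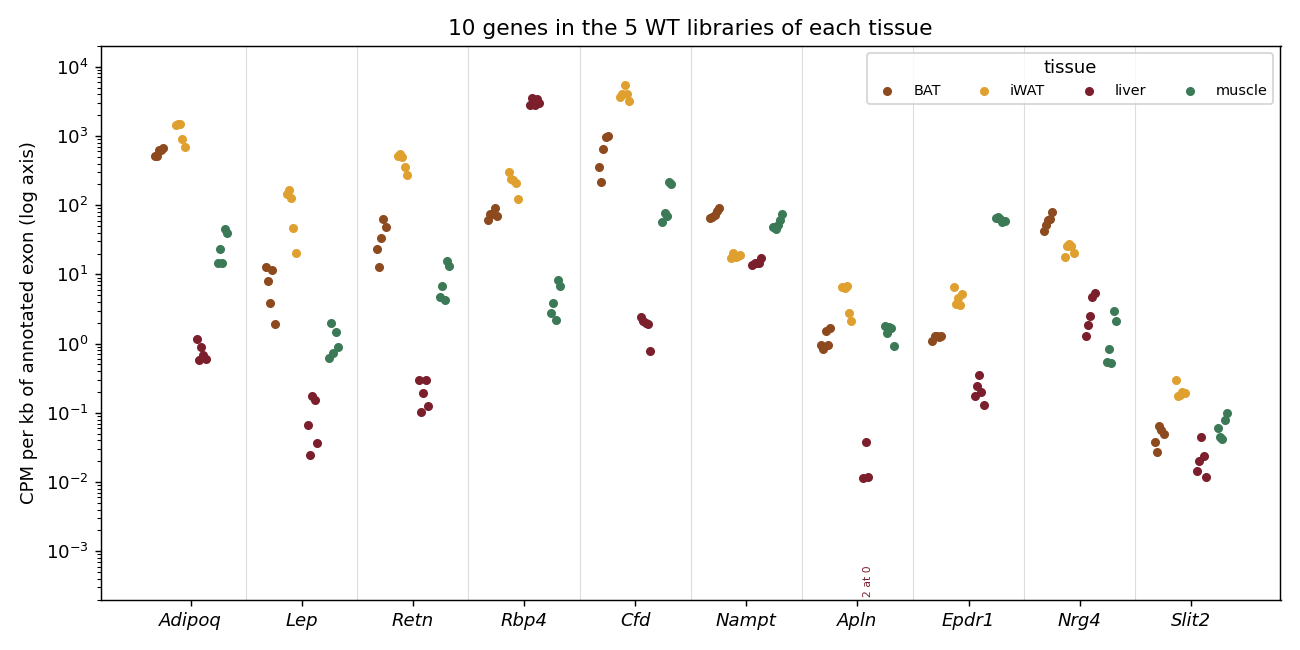
CPM per kilobase of annotated exon (log axis) of the 10 genes in WT BAT, iWAT, liver and muscle, 1 point per library (n = 5 per tissue), with libraries at 0 written as a count. Rbp4 was highest in liver, Epdr1 in muscle, Nampt and Nrg4 in BAT, and the other 6 genes in iWAT.

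Liver and muscle held high levels of few of the genes. Rbp4 was 3438, 4331, 3481, 4160 and 3712 CPM in liver, where the retinol carrier of plasma is mainly made, against 152 to 375 CPM in iWAT (iWAT against liver -3.81 ± 0.38, adjusted p = 3.07e-14, edgeR). Epdr1 was 163, 166, 155, 144 and 147 CPM in muscle against 2.73 to 3.22 CPM in BAT (BAT against muscle -5.65 ± 0.26, adjusted p = 1.1e-29, edgeR). The order of its levels was muscle, iWAT, BAT and liver, and no neighbours in that order overlapped. Nampt followed the order BAT, muscle, iWAT and liver, in which BAT (295 to 415 CPM) and muscle (206 to 333 CPM) overlapped and were not called different (0.44 ± 0.16, adjusted p = 0.0116, edgeR), and neither were iWAT and liver (61.2 to 78.3 CPM in liver, 0.30 ± 0.16, adjusted p = 0.0719).

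The order for Adipoq, Lep, Retn and Cfd was iWAT, BAT, muscle and liver, and that for Rbp4 was liver, iWAT, BAT and muscle. BAT and muscle overlapped for Lep, Retn and Cfd. Nrg4 was 2.86 to 11.7 CPM in liver and 1.16 to 6.63 CPM in muscle, and those tissues overlapped but were called different (1.14 ± 0.38, adjusted p = 0.00524, edgeR). Apln did not differ beyond its spread between BAT and muscle (2.91 to 5.73 CPM in muscle, -0.36 ± 0.38, adjusted p = 0.418, edgeR) and had 0 to 3 counts per WT liver library. Slit2 was not called between BAT and muscle (adjusted p = 0.304, edgeR) or between BAT and liver (adjusted p = 0.0327). In all, 9 of the 10 genes were called between BAT and liver (62.8% of all genes), 7 between BAT and muscle (59.1%), 9 between iWAT and liver (70.5%), and 10 each between iWAT and muscle (69.9%) and between liver and muscle (69.7%).

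Levels of different genes can be compared only per exon length. Per kilobase of annotated exon in WT iWAT, Cfd stood highest at 4099 CPM, before Adipoq at 1208, Retn at 438, Rbp4 at 222, Lep at 101, Nrg4 at 23.4, Nampt at 18.5, Apln at 4.88, Epdr1 at 4.79 and Slit2 at 0.209 (means, n = 5). In WT BAT, Cfd at 640 and Adipoq at 587 CPM per kilobase led again, and Nampt at 75.6, Rbp4 at 74.4 and Nrg4 at 59.6 stood above Retn at 36.1 and Lep at 7.58. In WT muscle, Cfd at 125 and Epdr1 at 62.4 CPM per kilobase were above Nampt at 55.8 and Adipoq at 27.6.

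Genotype was compared in liver and muscle over all 4 groups at once. In liver 7 of the 10 genes were tested, since Lep, Apln and Slit2 did not pass the filter on low counts. Of these 7, 0 were called (edgeR), against 0.34% of 14407 genes, and DESeq2 called 0. In this joint test 1 had an unadjusted p under 0.05 (edgeR), and the share of all genes at that threshold was not worked out. The gene with an unadjusted p under 0.05 was Cfd (adjusted p = 0.268, edgeR), where dKO replicate 1 stood at 8.43 CPM and the other 19 libraries at 0.553 to 3.82 CPM. Rbp4 in liver was 2577 to 3220 CPM in WT and 2210 to 3317 CPM in UCP1 KO, and those groups overlapped. In dKO it was 2425 to 2923 CPM, which also overlapped WT (dKO against WT -0.10 ± 0.10, adjusted p = 0.765, edgeR).

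In muscle all 10 genes were tested and 0 were called (edgeR), against 0.086% of 15114 genes, while DESeq2 called 1. An unadjusted p under 0.05 was found for 4 (edgeR). The share of all genes at that threshold was not worked out for this joint test. The gene that DESeq2 called was Lep (adjusted p = 0.00289), for which edgeR gave an adjusted p of 0.0381. It measured 1.65, 5.4, 1.94, 3.95 and 2.33 CPM in WT, 7.91, 8.52, 9.36, 9.72 and 1.94 CPM in FGF21 KO, 0.446, 4.04, 3.86, 0.753 and 1.38 CPM in UCP1 KO and 8.77, 25.7, 11.8, 4.25 and 12.4 CPM in dKO. Every UCP1 KO library was below every dKO library, as for 1.79% of all genes (-2.57 ± 0.55, adjusted p = 0.151, edgeR), and 0% of all genes were called in that comparison. Rbp4 in muscle was 2.21 to 8.42 CPM in WT, 6.002 to 11.3 CPM in FGF21 KO, 1.92 to 3.98 CPM in UCP1 KO and 2.14 to 7.72 CPM in dKO. Every UCP1 KO library was below every FGF21 KO library, as for 3.37% of all genes (-1.40 ± 0.34, adjusted p = 0.0511, edgeR), and 0.0265% of all genes were called there. The hepatocyte score of muscle was 0.84 to 4.69 in FGF21 KO and -0.03 to 1.23 in UCP1 KO, and -0.31 to 1.03 in WT. FGF21 KO replicate 5 had both the highest hepatocyte score and the highest Rbp4 level of the muscle libraries, and the part of liver RNA in these values was not tested. Muscle libraries held fat cell markers at a low level (adipocyte score 3.98 to 5.57), and WT replicates 4 and 5, with the highest scores of that group at 5.57 and 4.98, also had the highest Adipoq levels at 48.0 and 41.9 CPM against 15.4 to 25.1 CPM in the others. The median adipocyte score of muscle was 4.78 in WT, 5.11 in FGF21 KO, 4.54 in UCP1 KO and 4.89 in dKO. Over the 8 adipocyte genes the median log2 fold change was -0.37 in UCP1 KO against dKO and -0.48 in UCP1 KO against FGF21 KO. In both comparisons 0 of the 8 were called. The part of fat around the muscle in the Adipoq, Lep and Rbp4 values was not tested. Apln in muscle was 2.36 to 4.74 CPM in WT and 1.91 to 3.02 CPM in dKO (dKO against WT -0.82 ± 0.21, adjusted p = 0.102, edgeR). Epdr1 in muscle stayed between 116 and 138 CPM over all 20 libraries.

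The genes whose pattern over the 16 groups was most like that of each gene were found by Pearson's r of the group means of log2 CPM, in which the tissues make up most of the variation. Adipoq was most like Aoc3 (r = 0.999), a surface amine oxidase of fat cells, and Lgals12 (r = 0.997), a galectin of fat cells. Retn was most like Slc7a10 (r = 0.998), an amino acid carrier of white fat cells, and Epdr1 most like Tbx15 (r = 0.990), a transcription factor of muscle and fat. The nearest gene was Sncg for Lep (r = 0.979), Cyb5a for Rbp4 (r = 0.994), Pcdhb5 for Cfd (r = 0.987), Tomm40l for Nampt (r = 0.992), Slit3 for Apln (r = 0.996), Ppm1m for Nrg4 (r = 0.995) and Sox11 for Slit2 (r = 0.986). Among the 10 genes themselves, Retn and Cfd were the most alike pair (r = 0.983) and Rbp4 and Epdr1 the least (r = -0.953), with n = 16 groups, 4 from each tissue.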

How the data were processed

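RNA of BAT, iWAT, liver and muscle was sequenced as stranded poly(A) libraries. STAR placed the reads on mm10 (GRCm38), and the authors counted them on UCSC known genes with HTSeq-count and deposited whole-number read counts per gene symbol, without normalization. The strand option is not given in the sources used here. 1 row per file named no gene and was left out (at most 3.42e-05% of counts). The other 32764 rows were used.

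The low-count filter of the study was applied (maximum above 15, sum above 75, at most 10 of 20 libraries at 0). For tests over the 80 or 40 libraries of several tissues, at least 5 libraries above 0 were required in place of the last rule. Counts were scaled with TMM and fitted with edgeR's quasi-likelihood model (edgeR 4.0.16, limma 3.58.1, R 4.3.3), 1 mean per group and no covariate. P-values were adjusted over all genes tested (Benjamini-Hochberg) and an adjusted p under 0.01 was called. DESeq2 (version 1.42.0), the study's own tool, served as an alternative. For log2 CPM (prior count 2), a two-sided exact permutation of 5 libraries against 5 cannot go below p = 0.00794, which groups without overlap reach. Standard errors were derived from each fold change and its F statistic. The code was tested on simulated data.

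The 10 genes and all lists (receptors and partners, adiponectin folding and secretion, other adipokines, relatives, cell type markers) were chosen with earlier results of these data known. Named genes are the 10, members of those lists that were called or stand for a receptor, and the 2 genes most like each of the 10, of which the nearest are named. Ucp1 and Fgf21 are named as the targeted genes. Alternatives were DESeq2, RLE size factors, no filter, an adjusted p under 0.05, marker scores as covariates, only the 2 genotypes compared, iWAT libraries with a lymph node score at or under 4, a prior count of 0.5, and leaving out each library. Figures were drawn with matplotlib 3.10.9. No 2 libraries held identical counts (0 pairs). The depth, 28691377 to 50380696 counts per library, leaves genes such as Slit2 with few counts.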

Additional observations from a re-analysis of the deposited data

Results flagged for a closer look

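For genes with a median of at least 10 counts, the libraries of each gene, tissue and genotype were checked for 1 library far from the other 4, by its gap to the nearest relative to the group's range (Dixon's 95% critical value for 5 samples, 0.71). Of 145 groups, 12 held such a library, and chance alone marks about 1 in 20 groups. In iWAT, UCP1 KO replicate 2, which had a lymph node score of 7.17, stood apart 3 times. Its Nampt was 126 CPM against 175 to 191 CPM in the others, its Nrg4 was 64.8 CPM against 114 to 123 CPM, and its Slit2 was 1.08 CPM against 3.65 to 5.13 CPM. FGF21 KO replicate 2, at a lymph node score of 0.28 the lowest of its group, had 24.3 CPM of Epdr1 against 12.1 to 14.0 CPM. WT replicate 1 of iWAT had 4.71 CPM of Slit2 against 2.74 to 3.19 CPM. In BAT, dKO replicate 4 had 431 CPM of Nampt against 223 to 248 CPM, and WT replicate 1 had 2.83 CPM of Epdr1 against 3.22 to 3.32 CPM, a gap that is small beside the difference between genotypes. In muscle, FGF21 KO replicate 5 had 1.94 CPM of Lep against 7.91 to 9.72 CPM, and dKO replicate 3 had 3.02 CPM of Apln against 1.91 to 2.10 CPM. In liver, Adipoq was 0.835 CPM in UCP1 KO replicate 5 (0.532 to 0.574 CPM in the others) and 0.858 CPM in dKO replicate 5 (0.501 to 0.569 CPM), and Cfd was 0.553 CPM in WT replicate 5 (1.28 to 1.66 CPM).

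For 2 genes the effect of UCP1 loss differed between BAT and iWAT in a test of the difference itself. It was 2.11 on the log2 scale for Epdr1 (adjusted p = 0.00011, edgeR) and -0.97 for Nampt (adjusted p = 0.00963, edgeR). For Nampt, 2 of the libraries that stood apart, iWAT UCP1 KO replicate 2 and BAT dKO replicate 4, were part of the same model; without the first of them Nampt was still called. At the threshold of 0.01 the Nampt call was lost without each of 18 of the 20 libraries compared (adjusted p up to 0.0298, edgeR), with RLE factors and with no filter.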

How the results depend on the processing

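Of 106 alternative counts of called genes, 96 were within 1.5 times the reported count and 10 were not. In BAT, UCP1 KO against WT gave 2 called genes (Adipoq and Epdr1) with the macrophage score as a covariate and 1 (Epdr1) with the adipocyte score, both chosen after seeing the data, against 4. In BAT, dKO against FGF21 KO gave 2 (Cfd and Epdr1) in the libraries with a muscle score at or under 5, also chosen after seeing the data, against 4. In iWAT, UCP1 KO against dKO gave 1 (Lep) with DESeq2 and with the lymph node or the adipocyte score as a covariate, against 0. In muscle 1 gene (Lep) was called with DESeq2 and at an adjusted p under 0.05, against 0. The difference between BAT and iWAT held 1 gene (Epdr1) with RLE factors and with no filter, against 2, since Nampt had adjusted p = 0.0122 and 0.015 there (edgeR). The share of all genes called under these alternatives was not worked out, so these counts have no background of their own. The cause of these shifts was not tested. Of the called log2 fold changes under the alternatives, 118 stayed called in the same direction, 12 were no longer called and 0 were reversed. The 80 differences of log2 CPM moved by less than the spread between replicates with the smaller prior count, and that of Slit2 between UCP1 KO and dKO BAT, close to 0, changed sign.

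With each library left out in turn, the count of called genes was 3 to 6 for UCP1 KO against WT in BAT, 3 to 4 for dKO against FGF21 KO in BAT, 1 to 2 for the difference between depots and 9 to 10 for WT BAT against iWAT. It was 0 to 0 for UCP1 KO against dKO, FGF21 KO against WT and the interaction in BAT, for these and the 2 UCP1 loss comparisons in iWAT, and for liver and muscle with the 4 genotypes tested together. The other comparisons, among them dKO against WT and UCP1 KO against FGF21 KO, were not rerun this way. Rbp4 was the gene lost in dKO against FGF21 KO, without dKO replicates 1 or 2 or FGF21 KO replicates 2 or 5 (adjusted p up to 0.0136, edgeR). No paired analysis was possible because the labels give no replicate numbers that link libraries or tissues of a mouse, and replicates were numbered in the order of the samples. Depth limits Slit2 in BAT, with 8 to 55 counts per library, and Lep, Apln and Slit2 in liver, which were not tested.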
